A study of Triticum urartu with 18 samples.

Results

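A group of 58 genes that the deposited table lists without annotation was low or at 0 in young endosperm of Triticum urartu and had means of 106 to 75003 FPKM in 2 of the 3 libraries from the last stage of grain filling. FPKM counts sequenced fragments relative to transcript length and to the mapped fragments of that library. The genes were chosen from these values themselves. Each has an identifier starting with TRIUR3 and no annotation. Each has a mean of at least 100 FPKM in libraries 2 and 3 of 25 days post anthesis (DPA). That mean is at least 10 times each group mean at 5, 10 and 15 DPA, and the 5 and 10 DPA means are both under 100 FPKM. The rule found 58 of 25905 unannotated TRIUR3 genes (0.224%), in a table of 27121 genes. No value that entered the rule is tested. The 3 libraries of 20 DPA, library 1 of 25 DPA and the 3 flag leaf libraries did not enter it.

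The plants were wild-type Triticum urartu, accession PI 428198, with no treatment. T. urartu is the wild diploid wheat whose genome is the A genome donor of durum and bread wheat. Endosperm was sampled at 5, 10, 15, 20 and 25 DPA, after embryo, aleurone, seed coat and pericarp had been taken off, and flag leaf at 10 DPA. Each of these 6 groups has 3 libraries, described in the labels as independent biological replicates, and library numbers here are column numbers of the table.

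The endosperm of a cereal grain first divides and cellularises, then fills with starch and storage protein, and then dries as its starchy cells die while the aleurone around them stays alive. In maturing wheat and barley grains, the end of filling is known for transcripts that respond to abscisic acid, among them those of late embryogenesis abundant proteins, which protect drying cells. Which proteins the 58 genes encode is not given in the sources used here. Since no TRIUR3 identifier is in the reference gene table used here, none of the 58 could be matched (0 of 58) and they carry no gene name or role below. The series asked how the transcription of every gene in the endosperm changes through filling.

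The libraries differ in composition in a way that touches every value below. The 12 most abundant genes, ranked by their top FPKM and none of them among the 58, took 83.2% to 86.1% of the total FPKM at 20 DPA and 85.4% in 25 DPA library 1. They took 44.5% and 45.7% in 25 DPA libraries 2 and 3, and 53.3% to 54.7% at 15 DPA. Library 1 of 25 DPA also had 10644 genes above 0, like the 9328 to 11010 of 20 DPA and unlike the 17135 and 17237 of libraries 2 and 3. So the last stage has libraries of 2 kinds, and its 3 libraries are given one by one rather than as 1 mean. Read depth is not given. Relative to 10 DPA library 1, the lowest FPKM values imply a depth of 0.325, 0.543 and 0.616 in leaf libraries 1, 2 and 3. This depth was 0.651 to 0.812 at 20 DPA and at most 1.07 in any library. In leaf library 1 the 12 most abundant genes took 67.9% of the total FPKM, against 43.4% and 39.9% in leaf libraries 2 and 3. Leaf library 1 had 14533 genes above 0, against 17429 and 17866 in the other leaf libraries. Storage prolamins, the gliadins and glutenins of starchy endosperm, took at most 0.00102% of the total in any leaf library and 20.4% to 22.1% at 15 DPA. They took 0.00307% to 0.0129% at 5 DPA and 17.5% ± 0.444 at 10 DPA (SD, n = 3). Their share was 0.892% to 1.28% at 20 DPA, and 0.382%, 12.1% and 1.99% in 25 DPA libraries 1, 2 and 3. At 20 DPA, the stage compared with leaf below, prolamins were thus far below their 15 DPA share, though above that of every leaf library. Markers of aleurone and embryo could not be checked, because the table annotates 0 such genes. In bulk tissue, fewer cells of a type and less RNA per cell cannot be told apart.

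The 58 genes were of very unlike abundance. In 25 DPA libraries 2 and 3, 10 genes had a mean of at least 1000 FPKM, 19 had 300 to under 1000 FPKM and 29 had less than 300 FPKM. One gene outweighed all others. TRIUR3_17017 had a mean of 75003 FPKM in those libraries, against 2848 FPKM for the next, TRIUR3_27217. It made up 72.6% of the summed FPKM of the 58 genes in library 2 and 70.3% in library 3.

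TRIUR3_17017 was listed at 10.7, 0 and 0 FPKM in the 5 DPA libraries and at 0, 0 and 8.02 FPKM in those of 10 DPA. It stood at 4109, 6034 and 5951 FPKM at 15 DPA, at 1362, 2598 and 1427 FPKM at 20 DPA, and at 2847, 50894 and 99112 FPKM in 25 DPA libraries 1, 2 and 3. In leaf it was listed at 0, 2.61 and 0 FPKM. The gene was thus near 0 in both young stages and in leaf, and abundant in every endosperm library from 15 DPA on. Ordered by FPKM within a library, it was gene 43 to 52 at 15 DPA and gene 38 to 46 at 20 DPA. It was gene 31 in 25 DPA library 1, gene 10 in library 2 and gene 5 in library 3. It took 2.76% and 5.29% of the total FPKM of libraries 2 and 3, and 0.0790% of that of library 1.

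The 9 next most abundant genes were also low or at 0 at 5 and 10 DPA and higher at 15 DPA. TRIUR3_27217 was listed at 1.91, 0 and 0 FPKM at 5 DPA and at 0 in all 10 DPA libraries, then at 246, 186 and 199 FPKM at 15 DPA and 69.5, 99.7 and 90.1 FPKM at 20 DPA. Its 25 DPA libraries had 178, 1891 and 3804 FPKM. TRIUR3_26240 had means of 2815 FPKM in 25 DPA libraries 2 and 3 and 150 ± 36.7 FPKM at 15 DPA (SD, n = 3), and was listed at 0 at 10 DPA. TRIUR3_07263 had 1847 FPKM and TRIUR3_24776 1667 FPKM in libraries 2 and 3, and both were listed at 0 in every leaf library. TRIUR3_32713 (1650 FPKM), TRIUR3_20070 (1456 FPKM), TRIUR3_04491 (1417 FPKM), TRIUR3_21890 (1238 FPKM) and TRIUR3_20788 (1046 FPKM) complete the 10. TRIUR3_21890 differed from the others at 10 DPA, where it already had 20.5, 23.0 and 21.2 FPKM.

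**Figure D1:**
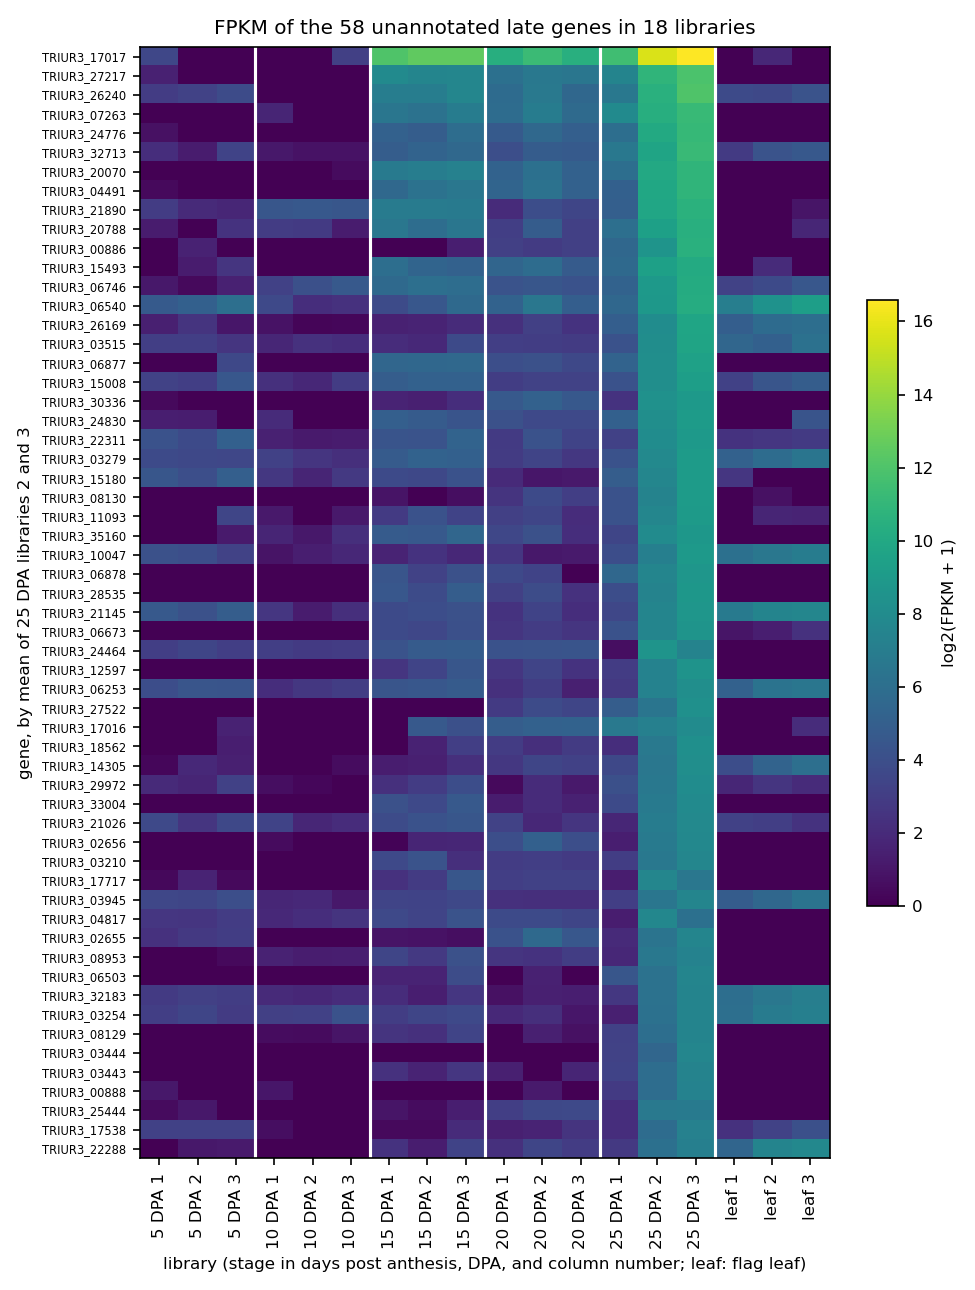
FPKM of each of the 58 genes (rows, from the highest to the lowest mean of 25 DPA libraries 2 and 3) in each of the 18 libraries (columns), coloured by log2(FPKM + 1). The last 2 endosperm columns are bright in every row because the rule chose the genes there. The 20 DPA columns and the first 25 DPA column are darker, and the leaf columns split the rows into dark and bright ones.

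Before 20 DPA the genes differed in when they were first detected, within what the rule allowed. In 11 genes, all 6 libraries of 5 and 10 DPA were listed at 0. For 43 genes the 15 DPA mean was the highest of the first 3 stages, and in 33 genes all 15 DPA libraries lay above all libraries of 5 and 10 DPA, as in 2.09% of 25107 genes of the table. These stages entered the rule, so nothing is read from that count. The 15 DPA mean was at least 10 FPKM in 36 genes and at least 100 FPKM in 5. It was under 1 FPKM in 6 genes, of which TRIUR3_27522, TRIUR3_03444 and TRIUR3_00888 were listed at 0 in all 15 DPA libraries. The 5 DPA mean lay above the 10 DPA mean in 37 genes. TRIUR3_06540, for example, had 24.7, 32.8 and 66.6 FPKM at 5 DPA against 11.5, 3.52 and 4.12 FPKM at 10 DPA.

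The thresholds fall inside a continuous range of values. The members just above the 100 FPKM minimum were TRIUR3_22288, TRIUR3_17538 and TRIUR3_25444, with means of 106, 108 and 109 FPKM in 25 DPA libraries 2 and 3. The genes just below it were TRIUR3_12404, TRIUR3_26563 and TRIUR3_12116, with 87.0, 86.8 and 85.3 FPKM. Just above the 10-fold minimum were TRIUR3_33004, TRIUR3_21026 and TRIUR3_06253, at 10.1, 10.2 and 10.4 times their highest early mean. TRIUR3_32980, TRIUR3_17290 and TRIUR3_12775 just missed it, at 9.91, 9.87 and 9.70 times.

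Between 15 and 20 DPA the genes did not move together. The 15 DPA means entered the rule, so this comparison is a description with no test. For 10 genes all 20 DPA libraries lay above all 15 DPA libraries, out of 57 with a value above 0 at either stage. The same held for 0.929% of 20243 genes of the whole table. For 25 genes all 20 DPA libraries lay below, against 55.2% of all genes. The median ratio of the 20 DPA mean to the 15 DPA mean was 0.507 over the 55 genes above 0 at both stages, and 0.158 over 13162 genes of the table.

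The 10 genes that stood higher at 20 DPA were TRIUR3_00886, TRIUR3_02655, TRIUR3_02656, TRIUR3_08130, TRIUR3_14305, TRIUR3_17016, TRIUR3_25444, TRIUR3_26169, TRIUR3_27522 and TRIUR3_30336. TRIUR3_02655 had 0.86, 0.74 and 0.50 FPKM at 15 DPA and 17.2, 49.8 and 21.6 FPKM at 20 DPA, a mean ratio of 42.2. At 5 DPA this gene had 4.17, 5.63 and 7.15 FPKM, also above its 15 DPA values. TRIUR3_30336 had 2.10, 1.70 and 3.50 FPKM at 15 DPA and then 23.4, 34.4 and 22.9 FPKM. TRIUR3_27522 was listed at 0 in all 9 libraries of 5, 10 and 15 DPA and had 6.13, 13.1 and 10.1 FPKM at 20 DPA. In each of these genes the groups did not overlap, and the level was already above that of 15 DPA before the stage at which the rule selected it. The widest gap in the other direction was that of TRIUR3_21890, with 117, 117 and 107 FPKM at 15 DPA against 3.16, 13.8 and 10.1 FPKM at 20 DPA.

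How the step from 15 to 20 DPA reads depends on the scaling of the libraries. Median-ratio scaling divides each library by its median ratio to a reference library, over genes detected in all libraries compared. The factors were 1.03 to 1.21 at 15 DPA, 0.116 to 0.185 at 20 DPA, 0.177 in 25 DPA library 1, and 1.63 and 2.21 in libraries 2 and 3. After it, 42 of the 57 genes lay higher at 20 than at 15 DPA without overlap and 1 lay lower, against 7.1% and 18.8% of all genes. The 42 include 14 that lay lower as deposited, TRIUR3_17017 among them. The median ratio of 20 to 15 DPA then was 3.67. All 10 genes listed above were also higher after median-ratio scaling, and 7 of them after scaling to equal total FPKM. The gene that was lower after median-ratio scaling was TRIUR3_21890.

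**Figure D2:**
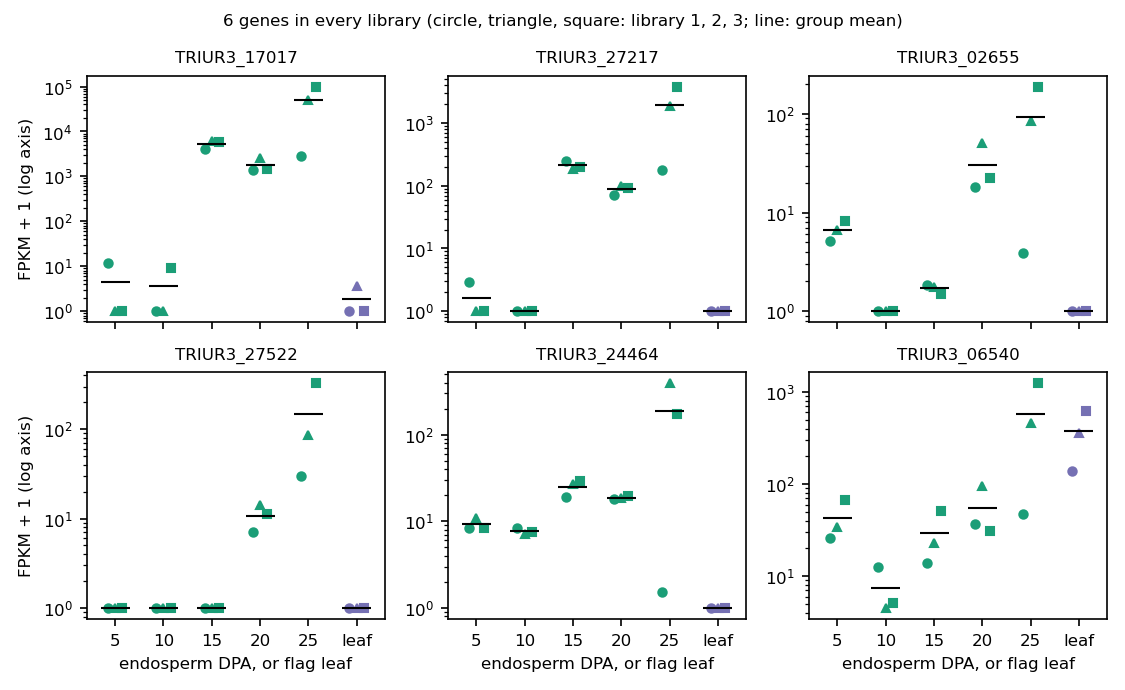
FPKM + 1 on log axes in every library for 6 of the genes, by endosperm stage in DPA and in flag leaf, with circles, triangles and squares for libraries 1, 2 and 3 and a line at the group mean. TRIUR3_17017 and TRIUR3_27217 were abundant from 15 DPA on. TRIUR3_02655 and TRIUR3_27522 stood above their 15 DPA level at 20 DPA, and TRIUR3_02655 was above it at 5 DPA as well. TRIUR3_24464 was lower in 25 DPA library 1 than in any other endosperm library, and TRIUR3_06540 was also present in leaf.

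The order of genes within a library does not change when that library is scaled. The median rank of the 58 genes, counted from the most abundant of 27121, was 17795 to 20271 at 5 DPA and 17612 to 18751 at 10 DPA, where genes at 0 share the rank after the last detected gene. At 15 DPA it was 2048 to 3399, and at 20 DPA 569 to 634. It was 415, 409 and 296 in 25 DPA libraries 1, 2 and 3. So library 1 of 25 DPA and the 20 DPA libraries, which the rule did not use, ranked these genes high, though their FPKM values there were low. Ranks of other unannotated genes abundant in 25 DPA libraries 2 and 3 were not computed. The high ranks are therefore not read as particular to the 58. Among the 1000 most abundant genes of a library were 11 to 17 of the 58 at 15 DPA, 38 to 42 at 20 DPA, and 43, 54 and 57 in the 25 DPA libraries. Ranks at 20 DPA are taken among fewer genes above 0 than at 15 DPA, where 15305 to 16131 were above 0, and the part of this in the ranks was not tested.

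**Figure D3:**
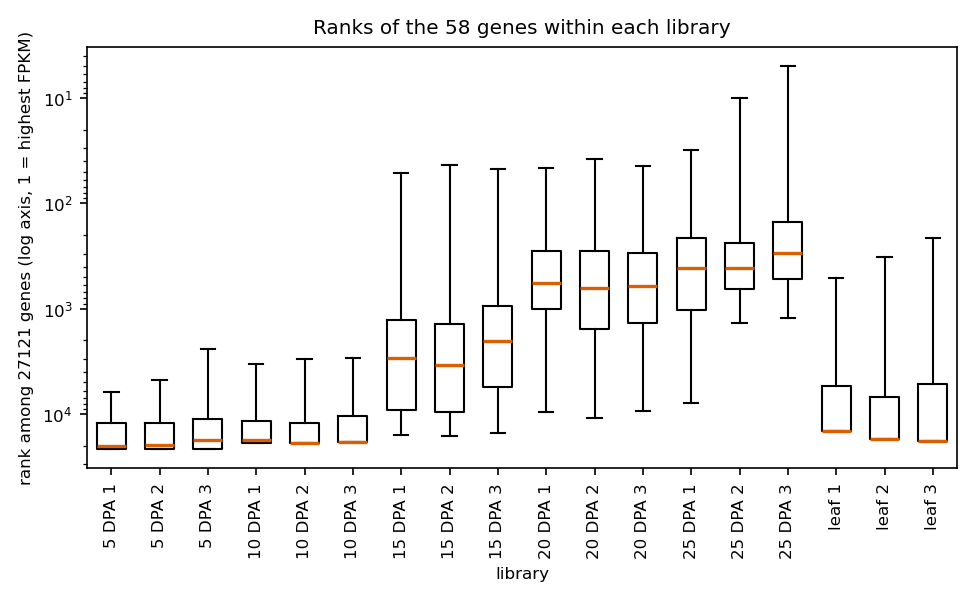
Ranks of the 58 genes among the 27121 genes of each library on an inverted log axis, 1 being the gene with the highest FPKM. Boxes span the quartiles, whiskers reach the lowest and highest rank, and orange lines mark the medians, which run from 569 to 634 at 20 DPA and are 415, 409 and 296 in the 25 DPA libraries.

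Library 1 of 25 DPA is the one sample of the selecting stage that the rule left out. All 58 genes were above 0 in it, as were 39.2% of all genes, and 4 reached 100 FPKM, against 44 in library 2 and 56 in library 3. Detection there was not particular to the 58. Of 665 other unannotated genes averaging 100 FPKM or more in libraries 2 and 3, 662 were above 0 in both library 1 and library 3. Every one of the 58 lay below its values in libraries 2 and 3, as did 70.4% of 20096 genes of the table. Since libraries 2 and 3 chose the genes, nothing is read from that count. The median ratio of library 2 to library 1 was 13.2 over the 58 genes, against 7.53 over 9911 genes above 0 in both. It was 14.8 over 661 other unannotated genes that also averaged 100 FPKM or more in libraries 2 and 3. The median ratio of library 3 to library 1 was 32.1 over the 58 genes and 21.5 over 662 of those other genes. Over 9849 genes of the table above 0 in both it was 10.1. Only 6 of the 58 reached 10 times their 15 DPA mean in library 1, with at least 1 FPKM, against 1.34% of all genes, and 22 did after median-ratio scaling, against 6.22%. Library 1 lay above all 15 DPA libraries for 25 of the 58, against 5.75% of all genes. The rule asked for low 15 DPA means, so these comparisons of library 1 with 15 DPA are descriptions only.

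Set against the 20 DPA libraries, which the rule also left out, library 1 lay above all 3 for 35 of the 58 genes, against 28.6% of 16071 genes. It lay below all 3 for 11, against 10.1%. The 35 lay above after median-ratio scaling and after total FPKM scaling too, and 9 lay below under each of the 3 scalings. Of 665 other unannotated genes averaging 100 FPKM or more in libraries 2 and 3, library 1 lay above in 45.1%. With 1 library there is no test, and the difference between these shares was not tested. TRIUR3_07263 had 245 FPKM in library 1 and 57.9, 125 and 53.3 FPKM at 20 DPA. TRIUR3_32713 had 99.5 FPKM against 15.1, 27.6 and 24.9, and TRIUR3_17016 had 104 FPKM against 28.8, 34.1 and 35.5. TRIUR3_03444 was listed at 0 in every library outside 25 DPA, where it had 8.76, 43.1 and 194 FPKM.

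Of the 11 genes that lay below, TRIUR3_24464 was lowest relative to 20 DPA. It had 0.52 FPKM in library 1 against 17.1, 17.6 and 18.5 FPKM, and 390 and 174 FPKM in libraries 2 and 3. TRIUR3_02655 and TRIUR3_02656 had 2.88 and 1.67 FPKM in library 1, where their 20 DPA libraries ran from 17.2 to 49.8 and from 14.8 to 32.9 FPKM. TRIUR3_30336 had 4.43 FPKM against 22.9 to 34.4. These 3 genes therefore stood above 15 DPA at 20 DPA and lower again in library 1 of 25 DPA.

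**Figure D4:**
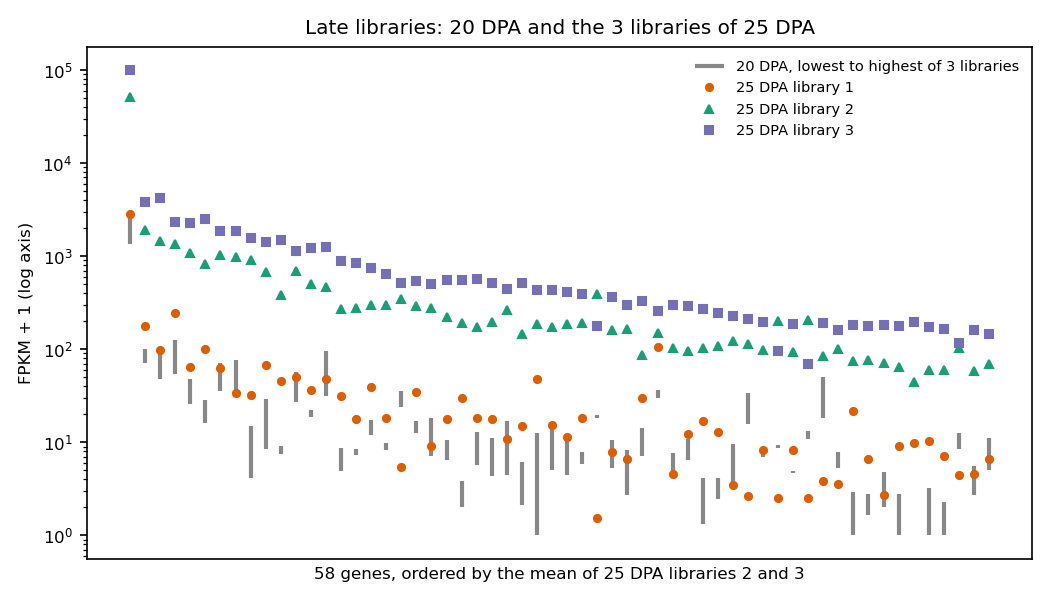
FPKM + 1 on a log axis for the 58 genes in order of their mean in 25 DPA libraries 2 and 3, with grey bars from the lowest to the highest 20 DPA library. Library 1 of 25 DPA (orange circles) lies near the grey bars, above them for 35 genes and below them for 11. Libraries 2 and 3, which chose the genes, lie above both for every gene, and library 3 lies above library 2 for 55. Of all genes, 64.9% had libraries 2 and 3 above every 20 DPA library, and 70.4% had them above library 1.

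Libraries 2 and 3, which chose the genes, also differed from each other. Library 3 was higher in 55 of the 58 genes, against 67.2% of all genes, and more than 2 times as high in 39, against 30.5%. The median ratio of library 3 to library 2 was 2.24 over the 58 genes and 1.51 over 664 of the other unannotated genes that reached the same minimum. Since both libraries entered the rule, these are descriptions. Of the 57 genes above 0 at 20 DPA, library 2 was the highest of that stage in 41, against 48.4% of all genes and 77.4% of the other abundant unannotated genes. Together the 58 genes took 3.80% of the total FPKM of library 2 and 7.52% of that of library 3. Without TRIUR3_17017 they took 1.04% and 2.23%. In 25 DPA library 1 the 58 genes took 0.126%, and at 15 and 20 DPA 0.349% ± 0.0530 and 0.0751% ± 0.0280 (SD, n = 3).

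Endosperm at 20 DPA was compared with flag leaf at 10 DPA, since neither group entered the rule. The values were fitted as log2(FPKM + 1) with limma over the 12699 genes with at least 1 FPKM in at least 3 of the 6 libraries. A gene was called at a Benjamini-Hochberg adjusted p under 0.05 and a log2 difference of at least 1 in size. Stage and tissue both differ between these groups and cannot be told apart. Of the 58 genes, 52 were tested, 32 were called higher in endosperm and 13 lower, and 7 were not called. Over all genes tested, 2.81% were called higher and 88.6% lower, with a median log2 difference of -2.78. In 24 of the 32, no leaf library reached 1 FPKM. These genes were tested only because they passed the filter at 20 DPA, so they had to differ. Of the 28 genes with at least 1 leaf library at 1 FPKM, 8 were called higher, 13 lower and 7 neither. Of those 8, only TRIUR3_26240 reached 1 FPKM in all 3 leaf libraries. The others reached it in 1 or 2, so they also needed 20 DPA libraries to pass, which favours a call higher. The libraries did not overlap in 32 genes higher and 12 lower at 20 DPA, against 2.76% and 87.8% of the genes tested. The 24 genes tested only through 20 DPA could not overlap, so the count of 32 is not read as a result. Without any 1 of the 20 DPA libraries, 7 genes were called higher, because a gene at 0 in leaf could then no longer pass the filter. With at least 1 FPKM asked of only 2 libraries, 29, 30 and 31 were, without 20 DPA library 1, 2 and 3.

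The highest log2 difference was that of TRIUR3_17017, whose 1796 ± 696 FPKM at 20 DPA stood against 0.870 ± 1.51 FPKM in leaf (SD, n = 3). Its log2 difference was 10.13 (SE 0.56, limma adjusted p = 1.49e-07), and it was higher in 3 of 3 libraries than in any leaf library. TRIUR3_15493 had 41.4 ± 15.3 FPKM against 1.03 ± 1.79 FPKM in leaf, a gap of 4.66 on the log2 scale (SE 0.61, limma adjusted p = 4.01e-05). TRIUR3_17016 had 32.8 ± 3.54 FPKM against 1.13 ± 1.96, a gap of 4.36 on that scale (SE 0.59, limma adjusted p = 5.30e-05). TRIUR3_17017, TRIUR3_15493 and TRIUR3_17016 each reached 1 FPKM in only 1 leaf library. They passed the filter with the help of their 20 DPA values, which limits what these p-values show. TRIUR3_26240 was the gene called higher at 20 DPA with the highest level in leaf. Its 20 DPA libraries had 54.5, 105 and 46.5 FPKM and its leaf libraries 12.05, 10.86 and 17.98 FPKM, so the groups did not overlap (log2 difference 2.19, SE 0.45, limma adjusted p = 0.000839).

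Leaf split the genes into classes that the rule had not used. In 28 of the 58 genes all leaf libraries were listed at 0, against 26.7% of all genes and 12.8% of the 665 other unannotated genes that were abundant in 25 DPA libraries 2 and 3. A leaf mean of at least 10 FPKM was found in 16 genes, 27.6% of the 58 and close to the 25.8% of all genes. The other 14 lay between. Genes near 0 at 5 and 10 DPA had been favoured by the rule, and the part of this in the share at 0 in leaf was not tested.

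Among the 28 genes at 0 in leaf, TRIUR3_27217, TRIUR3_07263, TRIUR3_04491, TRIUR3_20070 and TRIUR3_24776 had the highest 20 DPA means. These were 86.4 ± 15.4, 78.7 ± 40.0, 50.3 ± 21.9, 47.0 ± 20.1 and 34.4 ± 11.6 FPKM (SD, n = 3). TRIUR3_02655 and TRIUR3_30336 followed with 29.5 ± 17.7 and 26.9 ± 6.47 FPKM. In all 7, every 20 DPA library was above 0. Of the 28 genes, 22 passed the filter, and only through their 20 DPA values, so their calls are not read as results. The other 6, namely TRIUR3_00888, TRIUR3_03443, TRIUR3_03444, TRIUR3_06503, TRIUR3_06878 and TRIUR3_08129, were too low for the filter, with 20 DPA means from 0 to 6.91 FPKM. The median 5 DPA mean of the 28 was 0.117 FPKM, and 13 of them had a 5 DPA mean of 0.

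The 16 genes with at least 10 FPKM in leaf held 12 of the 13 that were called lower at 20 DPA, and TRIUR3_17538 was the remaining one. TRIUR3_06540 was the most abundant in leaf, with 138, 359 and 629 FPKM there and 35.8, 94.3 and 30.2 FPKM at 20 DPA. Its log2 difference was -2.72 (SE 0.62, limma adjusted p = 0.00148). TRIUR3_21145 had 111, 181 and 197 FPKM in leaf and 4.37, 9.27 and 3.45 FPKM at 20 DPA, which is -4.67 on the log2 scale (SE 0.47, limma adjusted p = 6.60e-06). TRIUR3_32183 had the most negative difference, -5.36 (SE 0.46, limma adjusted p = 2.23e-06), from 97.9 ± 35.8 FPKM in leaf to 1.36 ± 0.605 FPKM. TRIUR3_03254 and TRIUR3_10047 followed at -4.97 and -4.92 on the log2 scale. In each of these 5 genes every 20 DPA library lay below every leaf library.

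The leaf values of this class can be set beside the late endosperm values. TRIUR3_22288 had 42.4, 178 and 210 FPKM in leaf and 5.62, 67.6 and 144 FPKM in the 25 DPA libraries. In 13 of the 16 genes, the mean of 25 DPA libraries 2 and 3 lay above every leaf library. That mean chose the genes and no share over all genes is given, so nothing is read from the count. The median 5 DPA mean of the 16 was 8.75 FPKM, against 0.117 FPKM for the 28 genes at 0 in leaf. Their median 10 DPA mean was 3.13 FPKM, and that of the 28 was 0. No gene of the 16 had a 5 DPA mean of 0.

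Most of the calls lower at 20 DPA were lost under median-ratio scaling, while all 13 were kept under scaling to equal total FPKM, which gave 15. After median-ratio scaling 39 of the 52 genes were called higher and 3 lower, against 11.4% and 36.3% of all genes, whose median log2 difference was then -0.72. The 3 were TRIUR3_21145, TRIUR3_03254 and TRIUR3_32183, with log2 differences of -1.40, -1.90 and -2.47. TRIUR3_06540, TRIUR3_03515, TRIUR3_03279 and TRIUR3_26169 changed sign with no call, and TRIUR3_14305 and TRIUR3_17538 were called higher, at 1.27 and 1.46. All 32 genes called higher in endosperm were also called higher after median-ratio scaling, and 29 of them after scaling to equal total FPKM. In 24 of the 32 no leaf library reached 1 FPKM. Their calls under any scaling, and their part in the 39, are therefore not read as results.

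**Figure D5:**
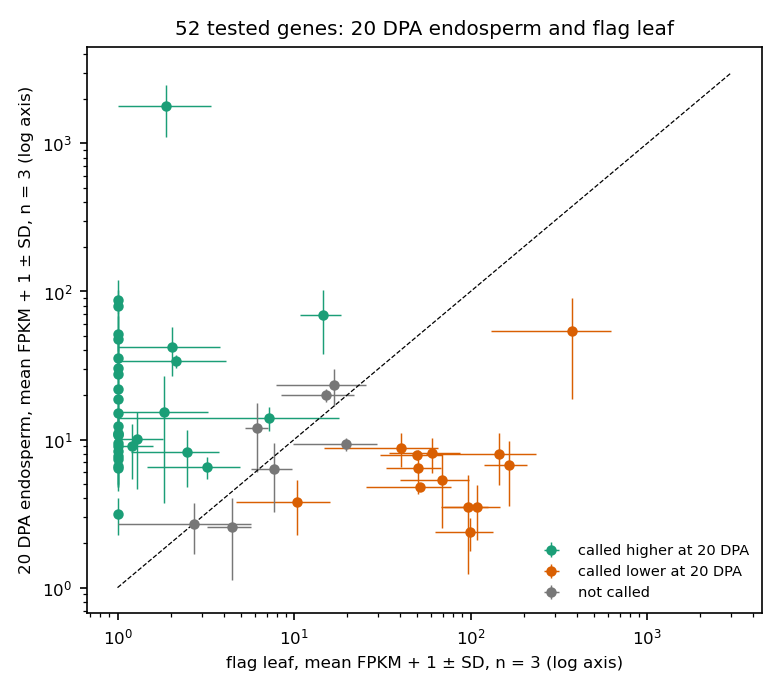
Mean FPKM + 1 of the 52 tested genes in flag leaf (x) and in 20 DPA endosperm (y), both on log axes, with bars of 1 SD over 3 libraries and a dashed line of equal values. The 32 genes called higher at 20 DPA (green) lie at the left, many of them listed at 0 in leaf, and the 13 called lower (orange) lie below the line.

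When the rule was applied to median-ratio scaled values it found 19 genes, each of them among the 58. The 19 include TRIUR3_07263, TRIUR3_24776, TRIUR3_32713, TRIUR3_04491 and TRIUR3_26240 of the 10 most abundant, and not TRIUR3_17017. Of the 10 genes that stood higher at 20 than at 15 DPA, TRIUR3_00886, TRIUR3_08130, TRIUR3_26169 and TRIUR3_30336 are among them. Of the 19 genes, 7 were listed at 0 in leaf. TRIUR3_00886 had 0, 0 and 1.64 FPKM at 15 DPA, 8.02, 6.42 and 7.68 FPKM at 20 DPA and 44.9, 385 and 1501 FPKM at 25 DPA. Its libraries did not overlap between 15, 20 and 25 DPA and were higher at each later stage.

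Among the 1160 annotated genes, which comprise storage protein genes, starch synthesis related genes and transcription factor families, 1 met the numeric part of the rule (0.0862%). This was TRIUR3_11943, listed as ERF, the ethylene response factor family of plant transcription factors. It had 15.0, 11.3 and 13.2 FPKM at 15 DPA and 1.65, 1.75 and 1.44 FPKM at 20 DPA, and 6.13, 94.6 and 202 FPKM in the 25 DPA libraries. In leaf it was listed at 0 in all 3 libraries. Its 15 DPA libraries lay above those of 20 DPA without overlap, and library 1 of 25 DPA lay between these groups.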

How the data were processed

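RNA-Seq of 15 endosperm and 3 flag leaf libraries was used. The authors' deposited table gives 1 FPKM per gene and library. The submitters' processing notes list Bowtie 0.12.2. Build, annotation and counting program were not given in the sources used here. FPKM divides by the mapped fragments of a library, so a few very abundant genes lower the values of all others. Column names give the group and not the sample, so columns were used as unnumbered replicates. The 58 genes and the comparisons were chosen with earlier results of these data known. Genes named for a pattern (an order of libraries, a lost call, a level in library 1) were chosen after their values were seen. Other names follow a rule: the highest means at 25 DPA, 20 DPA and in leaf, the largest called differences, and the genes next to a threshold.

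FPKM of 20 DPA endosperm and flag leaf were compared with limma 3.58.1 in R 4.3.3 on log2(FPKM + 1), with a variance trend, adjusting over all genes tested. Fold changes on that scale understate the change of low genes. The labels call the replicates biological without naming the plants behind each, so p-values measure the spread between libraries. Read depth is unknown, so no counting interval is given. Other values were computed in Python 3.11.15 with pandas 2.3.3. The limma step was run on simulated data in which few genes were changed. Those data lacked the wide shift between 20 DPA endosperm and leaf, so they do not bear on the calls above. Alternatives were pseudocounts, filters, scalings, other fits, each library left out, and other thresholds of the rule. The smallest p of an exact permutation test with 3 libraries a group is 0.1, so none was run.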

Additional observations from a re-analysis of the deposited data

How the results depend on the processing

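No paired analysis was possible because the column names carry no replicate number of the labels. Of the 58 genes, the rule left 37 with a minimum of 200 FPKM, 25 at 20 times and 19 after median-ratio scaling. It found 28 genes with the mean of all 3 libraries of 25 DPA and 27 with library 2 alone, 26 of the 58 in each case. It found 117 at 5 times and 90 with library 3 alone, which hold 58 and 55 of the 58. The fits to 1 library alone were chosen after seeing the data. Annotated genes meeting the rule were 4 at 5 times, 2 with library 3 alone, and 0 at 200 FPKM, at 20 times, after median-ratio scaling, with all 3 libraries or with library 2 alone. After median-ratio scaling, 42 members lay higher and 1 lower at 20 than at 15 DPA, and 22 reached 10 times their 15 DPA mean in 25 DPA library 1, against 6.22% of all genes.

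For 20 DPA against leaf, median-ratio scaling gave 5425 calls over all genes, 1291 higher and 4134 lower, and a filter at 5 FPKM gave 6882, 226 higher and 6656 lower. Members called lower were 3 after median-ratio scaling. Its reversed log2 differences were 0.45 (TRIUR3_03279), 0.66 (TRIUR3_03515), 0.72 (TRIUR3_06540), 1.27 (TRIUR3_14305), 2.24 (TRIUR3_15008), 1.46 (TRIUR3_17538), 2.46 (TRIUR3_21026) and 0.27 (TRIUR3_26169). With 1 library left out and the filter still asking for 3, members called were 19 to 45, of which 7 to 32 higher and 12 to 14 lower, since fewer genes were tested. Over all genes the calls were 5113 to 11272, with 126 to 363 higher and 4770 to 11146 lower. With a filter of 2 libraries, added after seeing the data, 29 to 32 members were called higher and 12 to 14 lower. Over the 21 alternatives, 938 of the members' differences stayed on their side of the threshold, 5 of them uncalled values that changed sign. Of the rest, 49 lost the call, 11 gained it and 8 turned. The lowest counts of members called, 19, 20 and 20, came without 20 DPA libraries 1, 2 and 3, and those over all genes, 5113 and 5133, without leaf libraries 2 and 3.

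Outside the 12 most abundant genes, the members took 0.755% at 15 DPA, 0.490% at 20 DPA and 0.131% in leaf, and 0.861%, 6.85% and 13.8% in the 25 DPA libraries. Without TRIUR3_17017 they took 0.0792% at 15 DPA, 0.0248% at 20 DPA, and 0.0466%, 1.04% and 2.23% at 25 DPA. The cause of these shifts was not tested. Low values rest on few fragments, and their number is unknown.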

Other observations

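Of the 58 genes, 3 were higher in 25 DPA library 2 than in library 3, and they were singled out after their values were seen. TRIUR3_24464 had 0.52, 390 and 174 FPKM in libraries 1, 2 and 3. TRIUR3_17717 had 1.51, 198 and 94.9 FPKM, and TRIUR3_04817 had 1.52, 206 and 67.8 FPKM. In all 3, library 1 lay below every 20 DPA library, and leaf was listed at 0. The storage prolamins held the same order of libraries, with 0.382%, 12.1% and 1.99% of the total FPKM. The other 55 genes had their highest value of the 25 DPA libraries in library 3. At 15 and 20 DPA the prolamins took means of 21.1% and 1.03% of the total FPKM. TRIUR3_24464 had means of 24.0 and 17.7 FPKM at these stages, TRIUR3_17717 10.6 and 8.04, and TRIUR3_04817 13.0 and 11.4. The like order was thus seen among the 25 DPA libraries and not in the step from 15 to 20 DPA, and it was not tested.

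The identifiers of 6 pairs of the 58 genes differ by 1 or 2. Whether consecutive identifiers are neighbours in the genome is not given in the sources used here. TRIUR3_02655 and TRIUR3_02656 had like values at 20 DPA, 17.2, 49.8 and 21.6 FPKM against 14.8, 32.9 and 14.9. TRIUR3_17016 and TRIUR3_17017 did not, with 32.8 and 1796 FPKM as 20 DPA means. The other pairs were TRIUR3_00886 and TRIUR3_00888, TRIUR3_03443 and TRIUR3_03444, TRIUR3_06877 and TRIUR3_06878, and TRIUR3_08129 and TRIUR3_08130. No member had values identical to those of another gene of the table.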
